A study of Mus musculus with 4 samples.

Results

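The enzymes that build mucin-type O-glycans and cap them with sialic acid or fucose were examined in epithelial cells of the mouse submandibular gland, a major salivary gland. The 39 genes were listed by name and were all found among the array's gene names, of 36282 names in all. They comprise 10 initiating enzymes, 5 genes of core synthesis, 11 of extension and branching, 10 sialyltransferases and 3 fucosyltransferases. RNA came from C57BL/6 mice aged 8 to 10 weeks, as freshly isolated cells sorted by flow cytometry into stem cells (2 arrays) and non-stem cell epithelia (2 arrays). The sources used here do not name the sorting antigens, the number of animals per sample or any pooling. Whether replicates are separate animals or separate sorts is not stated, so p-values measure the spread between these arrays alone, and that spread may be technical. Each gene was read from its brightest probe on a one-colour Agilent array.

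O-glycosylation of mucins starts in the Golgi, where an enzyme of the Galnt family attaches N-acetylgalactosamine to a serine or threonine. The sugar is then converted to core 1 by C1galt1, which needs the chaperone C1galt1c1 (Cosmc), or to core 3 by B3gnt6. Enzymes of the B3gnt, B4galt and Gcnt families lengthen and branch the chain, and sialyltransferases and fucosyltransferases cap it. Salivary acinar cells secrete mucins that carry dense arrays of such chains. Several of the extension and capping enzymes also act on N-glycans or glycolipids.

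The probes behind the results with the greatest weight are shown by the first 30 of their 60 bases, 5′ to 3′, so that each measured transcript can be identified. B3gnt6 and St3gal4 had a single probe, Galnt12, St3gal1 and St6galnac1 had 2 that were both tested, and St6gal1 had a second probe that stayed near background.
B3gnt6, chr7:105341054-105341113, minus strand: cttcatgttgtaaagccagatcactaggta
Galnt12 brightest probe, chr4:47135796-47135855, plus strand: aaatgttgagttagagttctctcaggggga
Galnt12 second probe, chr4:47135581-47135640, plus strand: ttgaaaactttaaaaatgtctcctggcatc
St3gal1 brightest probe, chr15:66934515-66934574, minus strand: atcctcctgattggtctgaatgcatttcca
St3gal1 second probe, chr15:66937894-66937953, minus strand: aataccaggaaaggtctagcctccaaacaa
St3gal4, chr9:34854434-34854493, minus strand: cccaacaccaagagattatttaacattcta
St6gal1 brightest probe, chr16:23360037-23360096, plus strand: tgtgggggagtaaattaataagtgtaatat
St6galnac1 brightest probe, chr11:116626566-116626625, minus strand: tctgtgccactgaatgcttgtaatcttatt
St6galnac1 second probe, chr11:116628322-116628381, minus strand: acatccttctatggcttcactgctttctct
The positions are those of the whole probes in the scanner files (mm9), and the exon or untranslated region that each probe lies in was not determined. Among the 55 probes of the 39 genes, the longest run of bases shared by probes of different genes was 11, so probes of related enzymes did not share long stretches with each other.

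Levels are given throughout as log2 of the processed signal minus the 75th percentile of the same array, called log2 signal here, and differences as log2 change, stem cells minus non-stem cell epithelia. The 75th percentile of the signal lay at 30.4 and 43.3 for stem cells, against 74.8 and 63.0 for non-stem cell epithelia. Between 35.7% and 42.3% of spots were well above background, and no spot was saturated. Over the middle 7 of 10 spike-in controls, the median log2 signal was 2.26 higher in stem cells. All changes are therefore relative to the bulk of the sample's own signal and not per amount of spike-in. Of the 5 enzymes called higher below, only St6gal1 had a log2 change (3.43) above 2.26. That change includes background signals in non-stem cell epithelia.

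Of the 39 enzymes, 28 reached the detection limit, a signal well above background on 2 or more arrays, and were tested with limma. In stem cells 14 of these were lower and 5 higher at a Benjamini-Hochberg adjusted p under 0.05, and 9 did not pass. Over all 17359 genes tested, 16.8% were lower and 14.1% higher by the same rule, 30.9% in all. The median log2 change was -0.59 over the 28 enzymes and -0.01 over all genes. Among the 23 enzymes above background on all 4 arrays, 13 were lower, 2 higher and 8 did not pass. A further 3 (B4galt2, St6gal1 and St6galnac6) passed the filter through a single group, and their changes include signals not well above background. The groups did not overlap for 26 of the 28, but that held for 71% of all genes tested. In bulk samples of sorted cells, fewer cells of a type and less RNA per cell cannot be told apart.

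Initiating enzymes were mostly lower in stem cells. Of the 10 Galnt genes, 9 were tested, of which 6 fell, 1 rose and 2 did not pass, with a median log2 change of -1.58. Galnt12, which belongs to the enzymes that favour already glycosylated substrates, had log2 signals of 1.02 and 1.09 in stem cells, against 5.07 and 4.81 in non-stem cell epithelia. The groups were far apart relative to the spread within each, and Galnt12 fell by 3.88 ± 0.17 on the log2 scale (SE, limma adjusted p = 0.00023), or 14.7-fold. Galnt4 stood at 0.34 and 1.04 in stem cells, against 3.26 and 3.13 in non-stem cell epithelia, and fell by 2.51 ± 0.26 (SE). Its stem cell arrays differed from each other more than those of any other initiating enzyme tested. Galnt7, which adds sugars next to existing ones, had 2.07 and 1.65 in stem cells, against 4.26 and 4.27 in non-stem cell epithelia, and fell by 2.41 ± 0.19 (SE). Galnt10, of the same preference, had 2.75 and 2.87 in stem cells, against 4.73 and 4.57 in non-stem cell epithelia, and fell by 1.84 ± 0.16 (SE). The genes for both of these follow-on enzymes were thus lower on each stem cell array than on each non-stem array.

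Galnt3, which encodes an enzyme known for protecting the hormone FGF23 from cleavage, had log2 signals of 2.53 and 2.64 in stem cells, against 4.28 and 4.06 in non-stem cell epithelia, a fall by 1.58 ± 0.17 (SE). Galnt6 had 1.47 and 1.48 in stem cells, against 2.36 and 2.04 in non-stem cell epithelia, and fell by 0.73 ± 0.18 (SE, limma adjusted p = 0.030). Galnt1 went the other way. This enzyme, needed in mice for normal secretion of basement membrane proteins during salivary gland growth, had 0.39 and 0.23 in stem cells, against -0.44 and -0.63 in non-stem cell epithelia. Its log2 change was 0.85 ± 0.16 (SE, limma adjusted p = 0.016). The calls of Galnt1 and Galnt6 were lost without either non-stem array, and over all alternatives their adjusted p reached 0.11 and 0.14. With normexp background correction, which models the local background on each array, the log2 change of Galnt1 was 0.38.

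Galnt2, a broadly expressed initiating enzyme, had log2 signals of 4.98 and 4.98 in stem cells, against 5.24 and 5.22 in non-stem cell epithelia. Its log2 change of -0.25 (95% interval -0.62 to 0.12) did not pass the test (limma adjusted p = 0.25). With normexp it was -0.70 and passed (limma adjusted p = 0.0039). Galnt11 had -0.95 and -0.66 in stem cells, against 0.05 and -0.57 in non-stem cell epithelia, and did not pass either (log2 change -0.55, 95% interval -1.18 to 0.09), except without stem cell replicate 2 (-0.69, limma adjusted p = 0.039). Galnt14 did not rise well above background on any array.

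**Figure D1:**
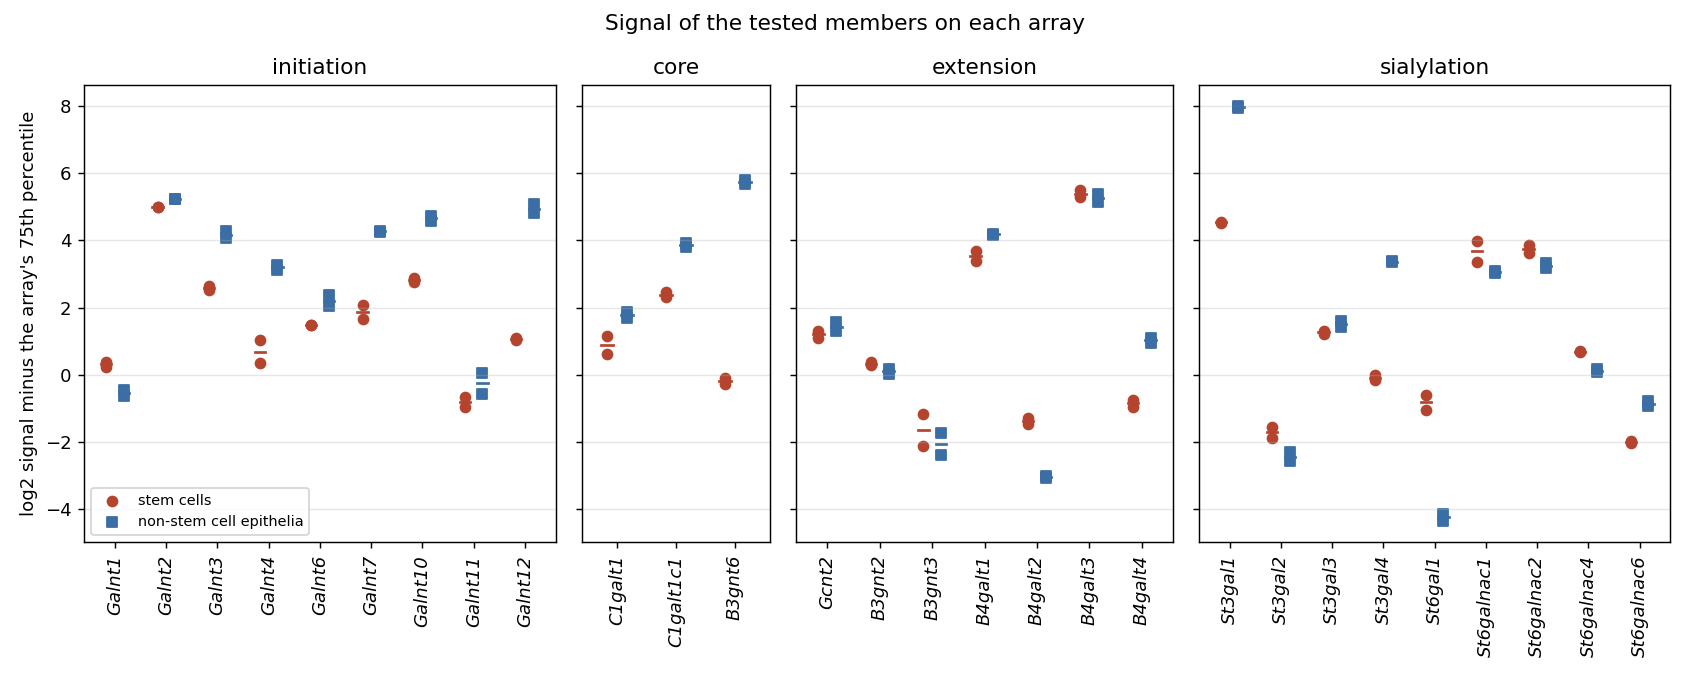
Log2 signal minus the array's 75th percentile (y axis) of the 28 tested enzymes (x axis), in panels by step, with circles for the 2 stem cell arrays, squares for the 2 non-stem arrays and lines for group means. B3gnt6 shows the widest gap, at -0.10 and -0.26 in stem cells against 5.80 and 5.67 in non-stem cell epithelia; signals of different genes come from different probes and are not to be ranked.

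All 3 tested genes of core synthesis fell in stem cells. B3gnt6, the core 3 synthase, had log2 signals of -0.10 and -0.26 in stem cells, against 5.80 and 5.67 in non-stem cell epithelia. Its fall by 5.92 ± 0.16 (SE, limma adjusted p = 0.00018), or 60.5-fold, was the largest among the 28 enzymes, and it was measured above background on all 4 arrays. C1galt1c1, the chaperone without which the core 1 synthase is not folded, had 2.31 and 2.46 in stem cells, against 3.93 and 3.82 in non-stem cell epithelia, and fell by 1.49 ± 0.16 (SE). C1galt1, the core 1 synthase itself, had 0.62 and 1.15 in stem cells, against 1.88 and 1.69 in non-stem cell epithelia. It fell by 0.90 ± 0.22 (SE, limma adjusted p = 0.033), a call lost without either non-stem array (adjusted p up to 0.16 over all alternatives). The core 2 branching enzymes Gcnt1 and Gcnt3 did not rise well above background on any array.

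Extension and branching enzymes moved in both directions. Of 11 genes, 7 were tested, of which 2 fell, 1 rose and 4 did not pass, with a median log2 change of 0.11. B4galt4, a galactosyltransferase that acts on sulfated N-acetylglucosamine, had log2 signals of -0.95 and -0.74 in stem cells, against 1.10 and 0.95 in non-stem cell epithelia, and fell by 1.87 ± 0.17 (SE), or by 0.87 with normexp. B4galt1, the galactosyltransferase that also forms part of lactose synthase in the mammary gland, had 3.40 and 3.68 in stem cells, against 4.19 and 4.16 in non-stem cell epithelia. It fell by 0.63 ± 0.17 (SE, limma adjusted p = 0.042), or by 1.01 with normexp and by 0.39 when both its probes were averaged. That call passed under 5 of 14 alternatives, and was lost without either non-stem array and without stem cell replicate 1 (adjusted p up to 0.17). B4galt2, another member of this galactosyltransferase family, had -1.28 and -1.46 in stem cells whereas in non-stem cell epithelia it measured -3.01 and -3.07, neither well above background. It stood at least 2.16-fold higher in stem cells, a bound that sets the stem cell mean against the lowest signal above background on each non-stem array, or the probe's own if higher. The adjusted p of 0.0018 (limma) belongs to the log2 change of 1.67 from signals without that limit. That change rests on background in non-stem cell epithelia. With normexp it was 0.55, which passed but is smaller than the bound.

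The other 4 did not pass the test. B4galt3 had log2 signals of 5.28 and 5.49 in stem cells, against 5.39 and 5.15 in non-stem cell epithelia, so the groups overlapped, and its log2 change was 0.11 (95% interval -0.33 to 0.55). That sign turned with normexp background correction, which gave -0.38. Gcnt2, the I-branching enzyme, had a log2 change of -0.23 (95% interval -0.68 to 0.21), and B3gnt2, a synthase of poly-N-acetyllactosamine, one of 0.22 (95% interval -0.17 to 0.62). B3gnt3, which extends core 1, was above background on 1 array of each group and overlapped between groups, with a log2 change of 0.42 (95% interval -0.52 to 1.36). Without stem cell replicate 1 that value was -0.058, and without stem cell replicate 2 it was 0.90 and passed the test (limma adjusted p = 0.0072). B3gnt5, which starts a class of glycolipid chains, and B3gnt7, B3gnt8 and B4galt5 did not rise well above background on any array.

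Sialyltransferases were called in both directions. Of 10 genes, 9 were tested, of which 3 fell, 3 rose and 3 did not pass, with a median log2 change of 0.50. Only the falls of St3gal1 and St3gal4 passed under every alternative with signal above background in both groups. St3gal1, which caps core 1 with sialic acid, had log2 signals of 4.51 and 4.56 in stem cells, against 8.01 and 7.95 in non-stem cell epithelia. It fell by 3.45 ± 0.15 (SE, limma adjusted p = 0.00023), or 10.9-fold. St3gal4, which sialylates N-acetyllactosamine ends, had -0.02 and -0.17 in stem cells, against 3.37 and 3.35 in non-stem cell epithelia, and fell by 3.45 ± 0.15 (SE), or 10.95-fold. Arrays of a group lay within 0.2 of each other for both genes, far less than the gap between groups. St6galnac6, which acts largely on gangliosides, measured -2.04 and -1.99 in stem cells, neither well above background, against -0.78 and -0.94 in non-stem cell epithelia. It stood at least 1.85-fold lower in stem cells by the main processing. With normexp its log2 change was -0.11, smaller than that bound, and no longer passed (limma adjusted p = 0.58).

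St6gal1, which adds sialic acid to galactose chiefly on N-glycans, was higher in stem cells. Its log2 signals were -0.60 and -1.04 in stem cells, against -4.36 and -4.13 in non-stem cell epithelia, where neither array was well above background. By the same bound it stood at least 3.17-fold higher in stem cells. The fitted log2 change was 3.43 ± 0.21 (SE, limma adjusted p = 0.00052) from signals without that limit. That change rests on background in non-stem cell epithelia. With normexp it was 0.77, which passed but is smaller than the bound. The second St6gal1 probe, 1.57 kb away, did not rise well above background.

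St3gal2, which sialylates core 1 and gangliosides, had log2 signals of -1.87 and -1.56 in stem cells, against -2.57 and -2.31 in non-stem cell epithelia, with 1 array of each group above background. It rose by 0.73 ± 0.19 (SE, limma adjusted p = 0.039), or 0.40 with normexp and 0.48 with quantile normalization, a call that passed under 6 of 13 alternatives and was lost without either non-stem array and without stem cell replicate 2 (adjusted p up to 0.18). St6galnac4, which adds a further sialic acid to sialylated core 1, had 0.70 and 0.67 in stem cells, against 0.17 and 0.08 in non-stem cell epithelia. It rose by 0.56 ± 0.15 (SE, limma adjusted p = 0.040), or 0.18 with normexp, a call that passed under 6 of 14 alternatives and was lost when any of the 4 arrays was left out (adjusted p up to 0.32 over all alternatives). The probes of St6galnac4 and St6galnac6 lie 20.3 kb apart on chromosome 2 (mm9). Their log2 changes had opposite signs, 0.56 and -1.15, but neither call held under every alternative. St6galnac6 was not well above background in stem cells.

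The remaining 3 tested sialyltransferases did not pass, although 2 of them did under some alternatives. St3gal3 had a log2 change of -0.25 (95% interval -0.65 to 0.15). St6galnac2 had log2 signals of 3.62 and 3.87 in stem cells, against 3.33 and 3.17 in non-stem cell epithelia, a log2 change of 0.50 ± 0.17 (SE, limma adjusted p = 0.082). It passed as higher under 5 of 14 alternatives (adjusted p from 0.0038 to 0.88 over all of them). St6galnac1, which makes the sialyl-Tn antigen, had 3.99 and 3.35 in stem cells, against 3.097 and 3.033 in non-stem cell epithelia, a log2 change of 0.60 ± 0.24 (SE, limma adjusted p = 0.12). It passed under 4 of 14 alternatives, among them as higher without stem cell replicate 2 (0.92, limma adjusted p = 0.0033) and as lower when its probes were averaged (-0.72, limma adjusted p = 0.028). St3gal6 did not rise well above background. None of the 3 listed fucosyltransferases was tested. Fut1 and Fut2, which make the H antigen, did not rise well above background on any array. Fut4, which makes Lewis-type structures, was above it on 1 non-stem array only. Of the fucosyltransferases outside the listed enzymes, Fut9 fell by 0.62 ± 0.16 (SE, limma adjusted p = 0.034), and Fut8 and Fut11 did not pass.

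**Figure D2:**
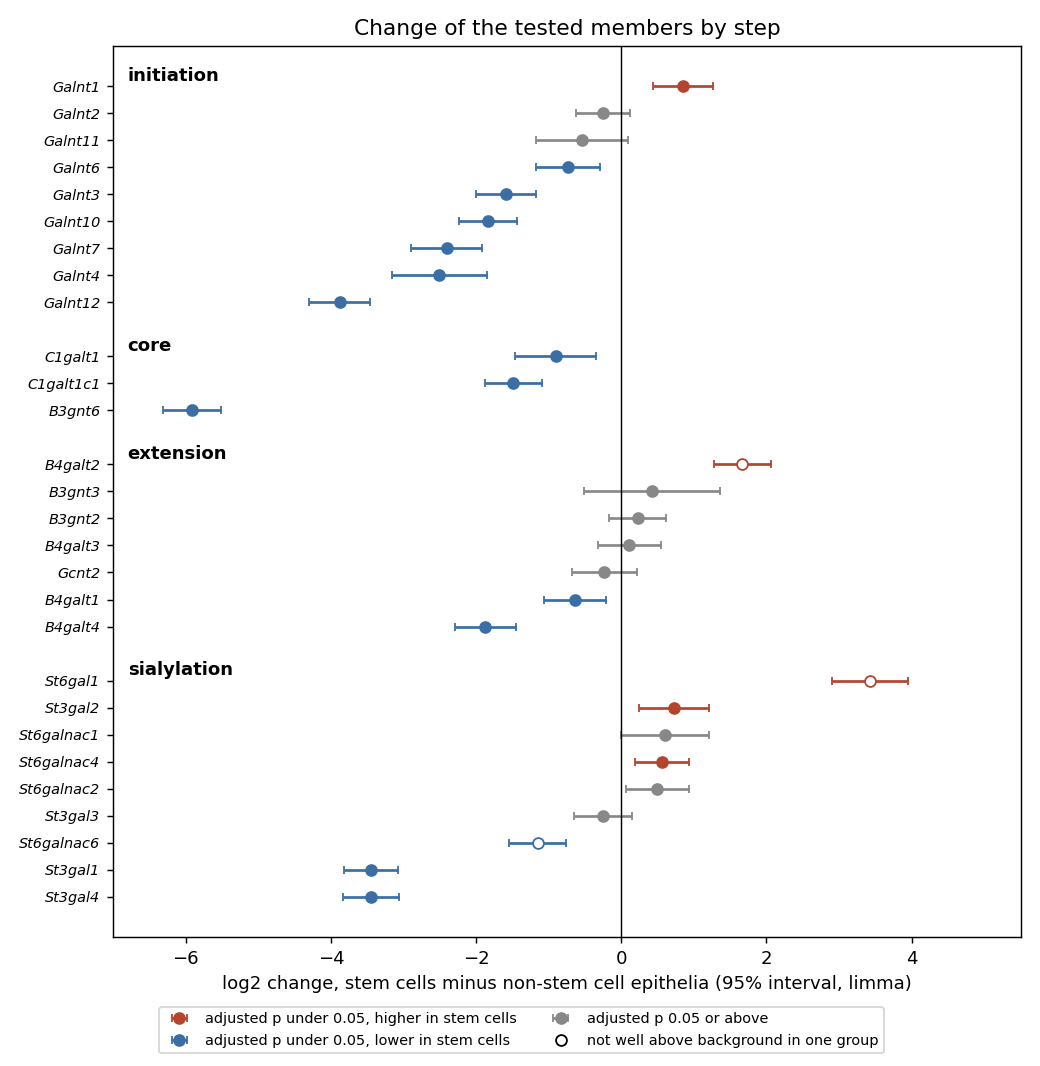
Log2 change of each tested enzyme (x axis, stem cells minus non-stem cell epithelia) with its 95% interval from limma, grouped by step down the y axis; filled colours mark direction for an adjusted p under 0.05, grey marks the rest, and open symbols mark genes not well above background in one group. Core genes lie wholly below 0, at -5.92 to -0.90, and sialyltransferases spread from -3.45 to 3.43.

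Between steps, the medians of the tested genes ran from -1.58 for initiation and -1.49 for core synthesis to 0.11 for extension and 0.50 for sialylation. These are descriptions over 9, 3, 7 and 9 genes with no test between steps. The sialylation median was 0.12 over genes above background on all 4 arrays and -0.25 when the tested probes of a gene were averaged. The extension median was -0.37 with normexp, and also lay below 0 over genes above background on all 4 arrays (-0.23), without stem cell replicate 1 (-0.058) and without non-stem replicate 2 (-0.0069).

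Where a gene had a second tested probe, it repeated the direction for some genes and not for others. There were 6 such genes. The second Galnt12 probe, 0.16 kb from the first, changed by -3.93 ± 0.16 (SE) on the log2 scale, close to the -3.88 of the brightest. The second St3gal1 probe, 3.32 kb away, had log2 signals of 2.63 and 2.73 in stem cells, against 6.95 and 6.83 in non-stem cell epithelia, a change of -4.21 ± 0.16 (SE). Both probes of each of these genes thus put every stem cell array below every non-stem array. The second B4galt4 probe was not well above background in stem cells, where it was at least 1.21-fold lower. The second B4galt1 probe had a log2 change of -0.16 ± 0.16 (SE), against -0.63 for the brightest. For B4galt3 the second probe had one of -0.0087 ± 0.17 (SE), against 0.11 for the brightest, opposite in sign but both small.

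St6galnac1 was the gene whose 2 probes disagreed most. The second probe, 1.70 kb from the brightest, had log2 signals of -0.81 and -0.69 in stem cells, against 1.21 and 1.36 in non-stem cell epithelia. Its change of -2.04 ± 0.16 (SE) was opposite in sign to the 0.60 of the brightest probe. Both probes were well above background on all 4 arrays and shared no run of more than 5 bases. Which transcripts each probe detects was not tested.

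**Figure D3:**
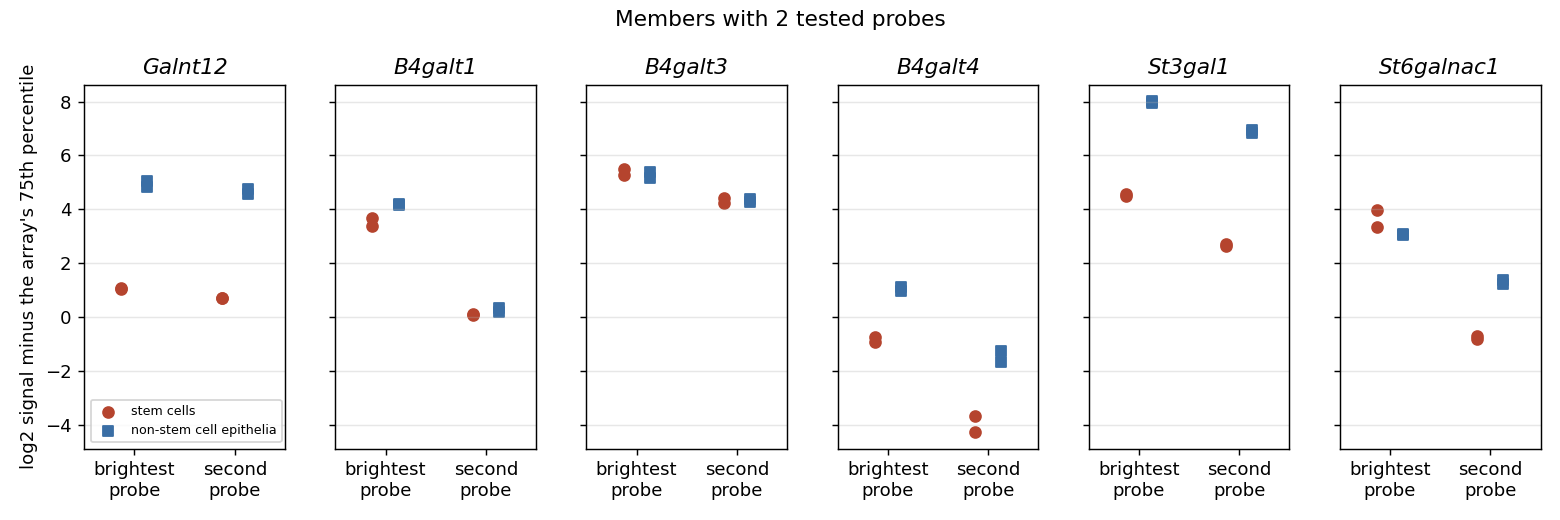
Log2 signal minus the array's 75th percentile (y axis) on each array for the brightest and the second probe (x axis) of the 6 enzymes with 2 tested probes; circles are stem cells and squares are non-stem cell epithelia. The probes of Galnt12 and St3gal1 show the same direction, whereas those of St6galnac1 had log2 changes of 0.60 and -2.04.

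Genes that supply the sugar donors were largely lower in stem cells as well. Of 24 tested genes for the synthesis and Golgi import of nucleotide sugars, 17 fell, 1 rose and 6 did not pass, with a median log2 change of -1.58. Gfpt1, the first enzyme of the hexosamine pathway, fell by 3.14 ± 0.17 (SE), and Nans, a sialic acid synthase, fell by 2.30 ± 0.16 (SE). The 1 that rose was Slc35d1, a transporter of nucleotide sugars, by 1.37 ± 0.20 (SE). These changes, like all others here, are relative to the bulk of the array's signal. For this count and those of the lists below, the shares over all genes tested were 16.8% lower and 14.1% higher.

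Of 39 other glycosyltransferases of O-glycans and of chain ends, 16 were tested, of which 11 fell, 1 rose and 4 did not pass. Among those that fell, Galnt5, Galntl6, B3galt6, Abo, St8sia1 and St8sia6 were not well above background on either stem cell array. They passed the filter through non-stem cell epithelia alone, and their falls include background signals. B3galt5, a galactosyltransferase that can extend core 3, had log2 signals of 2.00 and 2.08 in stem cells, against 6.15 and 6.12 in non-stem cell epithelia, and fell by 4.09 ± 0.15 (SE). B4galnt2, which makes the Sda blood group structure on sialylated chains, fell by 4.66 ± 0.18 (SE) with 1 of the stem cell arrays above background. Galnt5 was at least 2.87-fold lower in stem cells, where it was not well above background. The 1 that rose was Galnt18, listed on the array as Galntl4, by 1.62 ± 0.16 (SE). Galntl6, a related gene, was at least 1.21-fold lower and likewise not well above background in stem cells.

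Of 24 names of mucins and mucin-type proteins, 22 were found on the array and 9 were tested. Of these 9, 2 fell, 3 rose and 4 did not pass. The gel-forming mucin gene Muc19 had log2 signals of 6.79 and 6.87 in stem cells, against 10.8 and 10.6 in non-stem cell epithelia, and fell by 3.89 ± 0.16 (SE). Prol1, a mouse submandibular mucin gene, had 8.84 and 8.76 in stem cells, against 8.79 and 8.77 in non-stem cell epithelia, and did not pass (log2 change 0.02 ± 0.15, SE). Those 2 secreted mucin genes thus differed in their change. Pdpn, the mucin-type membrane protein podoplanin, rose by 3.93 ± 0.18 (SE), and Cd34, a sialomucin of endothelial and progenitor cells, was at least 3.28-fold higher. Cd34 cleared background on the stem cell arrays only. It passed the filter through that group alone, and its call as higher includes background signals.

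Of 7 tested genes for glycan sulfation, 4 fell and 3 did not pass. Gal3st2, which was among those that fell, was not well above background in stem cells. Papss2, which makes the sulfate donor, fell by 1.73 ± 0.16 (SE). Slc35b2, its Golgi transporter, fell by 0.70 ± 0.15 (SE), and Chst1, a sulfotransferase not well above background in stem cells, was at least 1.05-fold lower there. Of 12 tested glycosidases and genes of sialic acid turnover, 7 fell, 1 rose and 4 did not pass. Glb1, a lysosomal galactosidase gene, fell by 1.59 ± 0.16 (SE). The 1 that rose was Renbp, by 1.12 ± 0.22 (SE). Of 10 tested genes listed for enzyme retention or function in the Golgi, 7 fell and 3 did not pass. Cog6, a subunit of the complex that recycles Golgi enzymes, fell by 1.87 ± 0.15 (SE), Golph3 fell by 1.35 ± 0.16 (SE) and Tmem165 fell by 1.13 ± 0.15 (SE).

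**Figure D4:**
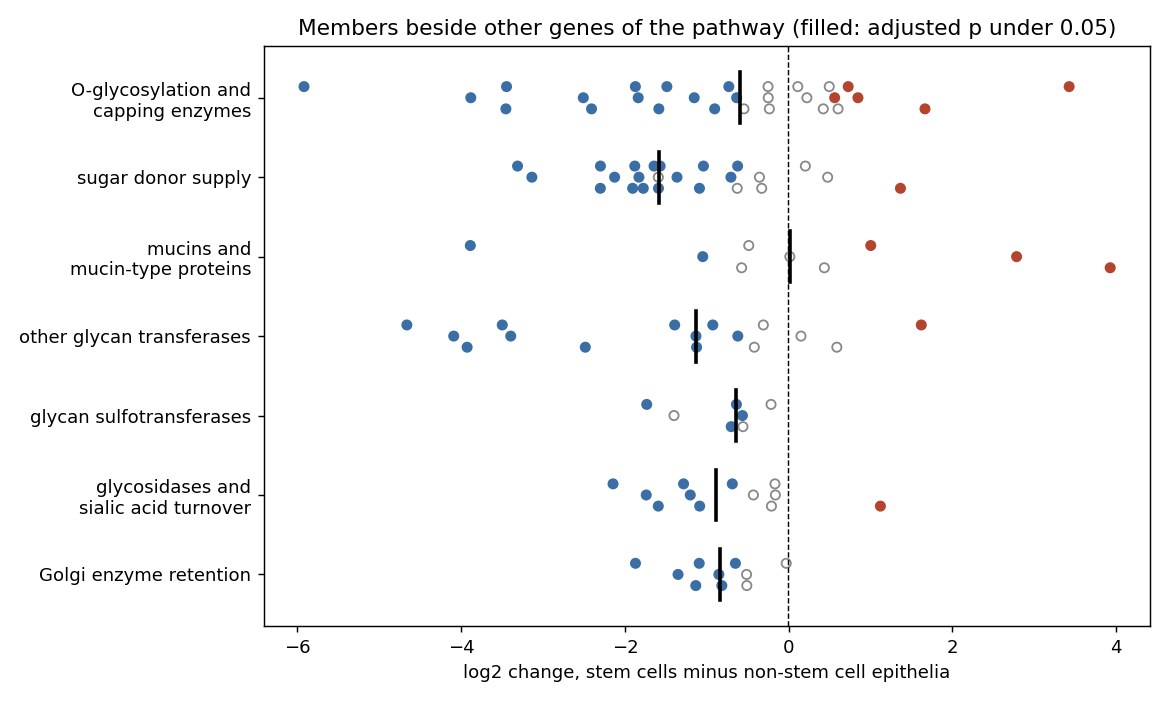
Log2 change (x axis, stem cells minus non-stem cell epithelia) of each tested gene of the 39 listed enzymes and of 6 other lists (y axis), filled where the limma adjusted p was under 0.05, with a black bar at each list's median and a dashed line at the median over all genes (-0.01). The median was -0.59 for the listed enzymes and -1.58 for sugar donor supply.

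Markers of other cell types also differed between the groups. Of 11 acinar markers, all tested, 7 were lower in stem cells and 4 did not pass. The log2 of their summed signals was 12.99 and 12.88 in stem cells, against 13.79 and 13.91 in non-stem cell epithelia. Sums of this kind, used for all marker lists here, are weighted towards the brightest genes of a list. All 11 were above background in both groups. Among them Bhlha15, a transcription factor of secretory cells, fell by 2.32 ± 0.15 (SE) and Aqp5, a water channel, fell by 3.19 ± 0.16 (SE). Of 8 basal and myoepithelial markers, 4 rose, namely Krt5, Krt14, Krt17 and Cdh3. The other 4 did not pass, with log2 changes of 0.56 for Trp63 and of -0.11, -0.21 and -0.37 for the contractile myoepithelial genes Acta2, Myh11 and Cnn1. Over all 8 the log2 of the summed signals was 7.70 and 7.73 in stem cells, against 6.42 and 6.50 in non-stem cell epithelia. Of 6 granular tubule markers 2 rose and 1 fell, with sums of 8.87 and 8.94 in stem cells, against 7.27 and 7.24 in non-stem cell epithelia. Their part in the changes of the glycosylation enzymes was not tested.

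Of 7 endothelial markers, 4 were tested and 2 rose, with sums of 4.10 and 4.01 in stem cells, against 3.41 and 3.53 in non-stem cell epithelia, while Cdh5 and Emcn did not rise well above background. Of 6 leukocyte markers 3 were tested and 1 rose (sums 6.39 and 6.00 in stem cells, against 5.29 and 5.46 in non-stem cell epithelia), and the pan-leukocyte gene Ptprc was not well above background. Of 5 fibroblast markers 2 were tested and 1 rose (4.44 and 4.55 in stem cells, against 3.19 and 3.28 in non-stem cell epithelia), with Col1a1 and Pdgfra not well above background. All 4 erythroid markers fell, with sums of 5.45 and 5.48 in stem cells, against 7.50 and 7.82 in non-stem cell epithelia. Among them, Slc4a1 was not well above background in stem cells and passed the filter through non-stem cell epithelia alone. Outside the erythroid list, Kdr (endothelial), Itgam and Cd3e (leukocyte) and Col1a2 and Dcn (fibroblast) were well above background on all 4 arrays. Of these, Itgam rose by 0.86 ± 0.19 (SE) and Dcn by 2.14 ± 0.16 (SE). Kdr, Cd3e and Col1a2 did not pass, with log2 changes of 0.40, 0.14 and -0.49. The undetected markers thus do not show that such cells were absent, and the detected ones do not show that they were present. The part of all these cell types in the results was not tested.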

How the data were processed

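Total RNA was labelled with Cy3 and hybridised to 4 one-colour arrays, per the labels' protocols. Spot intensity in the deposited files is linear and came from Feature Extraction 10.7.3.1, with mm9 coordinates, per the file headers. The submitters' processing notes name version 9.1, and this was not resolved. The deposited series table holds log2 values by the authors, with scale and centring unstated. Differences between arrays were the same in that table and in the scanner files (correlation 1.00), so scale and direction are settled, and the centring is unknown (column medians -0.27 and -0.55 for stem cells, -0.83 and -0.75 for non-stem cell epithelia).

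Control spots and spots with outlier flags were left out. Log2 processed signals were averaged over a probe's spots, and each array's 75th percentile over 55681 probes was subtracted. Probes well above background on at least 2 of 4 arrays were kept, and a gene was represented by its brightest one. Names came from RefSeq (GRCm38.p6) through unversioned accessions for 26582 probes, and from the array otherwise. Groups were compared with limma 3.58.1 in R 4.3.3 (lmFit, then eBayes, two-sided). P-values were adjusted over 17359 genes by Benjamini-Hochberg, with 5.53 degrees of freedom in all. Second probes were fitted over all tested probes. The fit was tested on simulated data. All 4 arrays carry the same scan time, so there was no scan batch.

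The 39 genes and the lists were chosen with earlier results of these data known. Each listed enzyme is described, and from each other pathway list the 3 genes with the smallest p, except that some of these are not reported here. Slc35d1, Galnt18, Galntl6, Fut8, Fut9, Fut11, Renbp, Prol1 and the marker genes named were picked with their values in view. The alternatives are named in the closing section. The number of arrays limits the precision.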

Additional observations from a re-analysis of the deposited data

How the results depend on the processing

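The 14 alternatives covered normalization, background correction, the filter on dim probes, the deposited values, the variance model, the choice of probe, blocks and leaving out each array. Of the 19 calls, 10 passed under every alternative with signal above background in both groups, all of them lower (Galnt3, Galnt4, Galnt7, Galnt10, Galnt12, C1galt1c1, B3gnt6, B4galt4, St3gal1 and St3gal4). B4galt2 and St6gal1 were not well above background on either non-stem array, so their calls rest on background there. The other 7 were lost under some, and the cause was not tested. The median over all genes moved to -0.10 with normexp, to 0.13 with the 75th percentile over detected probes and to 0.43 without the filter, against -0.01. Calls higher in stem cells were 45.7% of all calls, 25.3% with normexp, 59.3% with detected probes and 52.4% without the filter.

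With normexp 3 enzymes were higher, 1601 genes were higher and 4736 lower over the array, and the medians were -1.82 for initiation, -0.37 for extension and 0.038 for sialylation, with B4galt3 at -0.38. Without the filter 2 enzymes were higher, 841 genes higher and 765 lower, and the medians were -1.16 for initiation and 0.22 for extension. With quantile normalization the medians were -1.46 and 0.21, and with detected probes -1.45 and 0.25, and 0.64 for sialylation. Over genes above background on all 4 arrays they were -0.23 for extension and 0.12 for sialylation. Averaging a gene's probes gave -0.25 for sialylation and -0.72 for St6galnac1, because its second probe fell. The fucosylation median had no value, since none of the 3 listed fucosyltransferases was tested.

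When each array was left out in turn, the enzymes called higher ranged from 2 to 5, genes higher from 686 to 2880 and genes lower from 901 to 3572. Medians ranged from -1.70 to -1.47 for initiation, from -0.058 to 0.11 for extension and from 0.29 to 0.58 for sialylation. B3gnt3 ranged from -0.058 to 0.90 and B4galt3 from -0.0069 to 0.23. In such fits the spread comes from the other group alone, so the lone array is assumed to vary like it.

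The labels share replicate numbers, but same-numbered arrays deviated from their group means with a correlation of -0.10, so the numbers are not taken to pair samples. With the replicate block, 4 enzymes were higher and 13 lower, and B4galt1 and St6galnac4 lost their calls. A replicate block with crossed pairing, chosen after seeing the data, gave 3 higher and 13 lower. Calls not made in the report were gained by St6galnac2 under 5 of 14 alternatives, by St6galnac1 under 4, and by Galnt2, Galnt11 and B3gnt3 under 1 each. Dim signals limit B4galt2, St6gal1, St6galnac6, St3gal2 and B3gnt3.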
